A study of Mus musculus with 77 samples.

Results

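The BCL2 family of mouse was followed through 10 genes, read from the lines that carry the symbols Bcl2l1, Bcl2, Mcl1, Bcl2l11, Pmaip1, Bbc3, Bmf, Bik, Bax and Bak1 in 10 tables of library values that list 24940 or 25124 genes, or 404 genes in 1 short table. All 10 genes were present in the 9 full tables, and Bbc3 and Mcl1 were the 2 members of the short one. Proteins of this family decide whether the outer mitochondrial membrane stays closed or is opened for cytochrome c, the step that commits a cell to apoptosis. BCL-XL (Bcl2l1), BCL2 and MCL1 keep cells alive, BAX and BAK (Bak1) form the pores, and the BH3-only proteins BIM (Bcl2l11), NOXA (Pmaip1), PUMA (Bbc3), BMF and BIK bind the survival proteins or the pore formers and so promote death. Glucocorticoids are known to kill lymphoid cells through BIM and to protect several epithelia, where BCL-XL is a known induced gene, and colonic epithelium is a natural target of aldosterone.

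The study asked how the glucocorticoid receptor (GR, gene Nr3c1) bears on transcription that aldosterone drives through the mineralocorticoid receptor (MR, gene Nr3c2). Mouse adenocarcinoma cells were parental or labelled GRKO (GR knockout) and carried MR, a form called MR580C, or, in a parental line only, no added MR. The titles name the parental MR line MR-1G12 and the GRKO MR line MR-2B12, so between them genotype and line cannot be told apart. Colon organoids, which are gel cultures of intestinal epithelium, were wild type (WT) or labelled GRKO. The value columns of the latter are headed GRKD, which is not explained. All were kept in charcoal-stripped serum, and RNA was taken 2 h after addition of vehicle, of 10 nM aldosterone or, in the lines with an added receptor, 100 nM corticosterone. The vehicle of the GRKO groups thus carries the GRKO label itself, and the vehicle of the MR and MR580C groups carries the added receptor. Of 63 RNA samples in 18 groups, 62 had a column: 3 libraries per cell group, apart from 2 with aldosterone and 2 with corticosterone in parental MR cells, then 6 per group of WT organoids and 5 per group of GRKO organoids. The labels do not say how the knockout and the added receptors were made, whether a line is 1 clone, or whether replicates are separate cultures or animals. The p-values therefore reflect only how far these samples scatter, and that scatter may be technical.

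Library totals ran from 22.68 to 61.12 M reads. Organoids carried the epithelial markers Epcam (14.56 in WT vehicle), Cdh1 (14.77) and Krt8 (16.62) on the deposited log2 scale. In parental MR cells Epcam was listed at 0 and Cdh1 at the lowest value of the table. Of the mesenchymal genes Col1a2 stood at 16.6 there but Col1a1 at 5.97 to 5.99 with vehicle, so no cell type was read from them. Nr3c1 ran from 11.15 to 11.42 in WT and from 9.07 to 9.24 in GRKO vehicle organoids. Its vehicle mean was 13.00 in the MR line labelled GRKO and 12.87 in the parental MR line. No lower level was seen under the GRKO label there, but these tables, like those of the organoids, were normalized separately. Contrasts between the MR lines therefore rest on the label. Nr3c1 stood at 13.51 in cells without added MR and, also on separate scales that allow no comparison, at 13.17 in parental and 11.88 in GRKO-labelled MR580C cells. The labels do not say which part of the gene was removed. Nr3c2 stood at 4.69 without and 10.84 with added MR in parental cells. Libraries numbered 3 of parental MR cells stood apart, with the ribosomal precursor Rn45s at 21.31 (vehicle) and 21.09 (corticosterone) against 18.19 to 18.47 in the other libraries of that table, and the members' results in this line are given with and without them; those of other genes are given with them. In WT organoids the collagen gene Col1a1 was 8.10 and 9.06 in aldosterone libraries 4 and 6 against 5.93 to 6.72 in the other 10, and its part in the results was measured by leaving both out. Aldosterone library 5 held more Mir6236 (11.54 against 5.93 to 6.45 in the other 5) and Lars2 (13.24), and library 3 more Rn45s (22.78). Without either of these the same 3 members were called in WT organoids. In bulk samples fewer cells of a type and less RNA per cell cannot be told apart.

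In vehicle-treated cells the members covered a wide range of levels per kilobase of listed transcript. In parental MR cells Bax came first at 12.90 ± 0.065 (SD, n = 3, log2 level minus log2 of the length in kilobases). Bak1 (10.48 ± 0.028), Mcl1 (10.27 ± 0.068) and Bcl2l1 (9.64 ± 0.023) formed the next range. Bcl2 (8.17 ± 0.028), Bbc3 (7.64 ± 0.029), Bcl2l11 (7.33 ± 0.037) and Bmf (6.18 ± 0.019) followed. Each neighbouring pair in this order was further apart than the SD of either gene. In cells without added MR the order of Bak1 (10.70 ± 0.027) and Mcl1 (10.88 ± 0.015) was the other way round, and so was that of Bbc3 (6.87 ± 0.015) and Bcl2l11 (7.62 ± 0.003). The NOXA gene Pmaip1 was listed at 0 in every library of 5 of the cell tables that hold it, at -1.48 in every corticosterone and vehicle library of MR cells labelled GRKO, and at 9.16 in parental MR580C cells, which is the lowest value of that table. Bik lay below the filter in the same tables except that of MR580C cells, so neither gene could be tested in most cell lines. Tests therefore covered 8 members in cells, 9 in parental MR580C cells and 10 in organoids. The lowest values for parental MR580C cells (9.16), WT organoids (5.93) and GRKO organoids (6.65) lie above the filter of 3.32. There every gene that varied was tested, Bik included. Shares of genes called there cover genes near the lowest value too and do not compare with the shares in the other cells.

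By the limma tests Bcl2l1 was the member called with both hormones in cells, though not in every line. It rose with aldosterone in 3 of 5 cell lines and with corticosterone in all 3 lines with a full table, and in organoids it rose in both genotypes. In GRKO-labelled MR580C cells it was not called with aldosterone, and the short table for corticosterone does not list it. No other member passed this test in MR cells, though with corticosterone in the parental line a fit blocked on replicate number called 4 members. Corticosterone in parental MR580C cells moved 5 members, or 3 to 4 without single libraries. A difference between these lines was not tested. Aldosterone in organoids moved Pmaip1, Bcl2 and Mcl1 besides Bcl2l1.

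**Figure D1:**
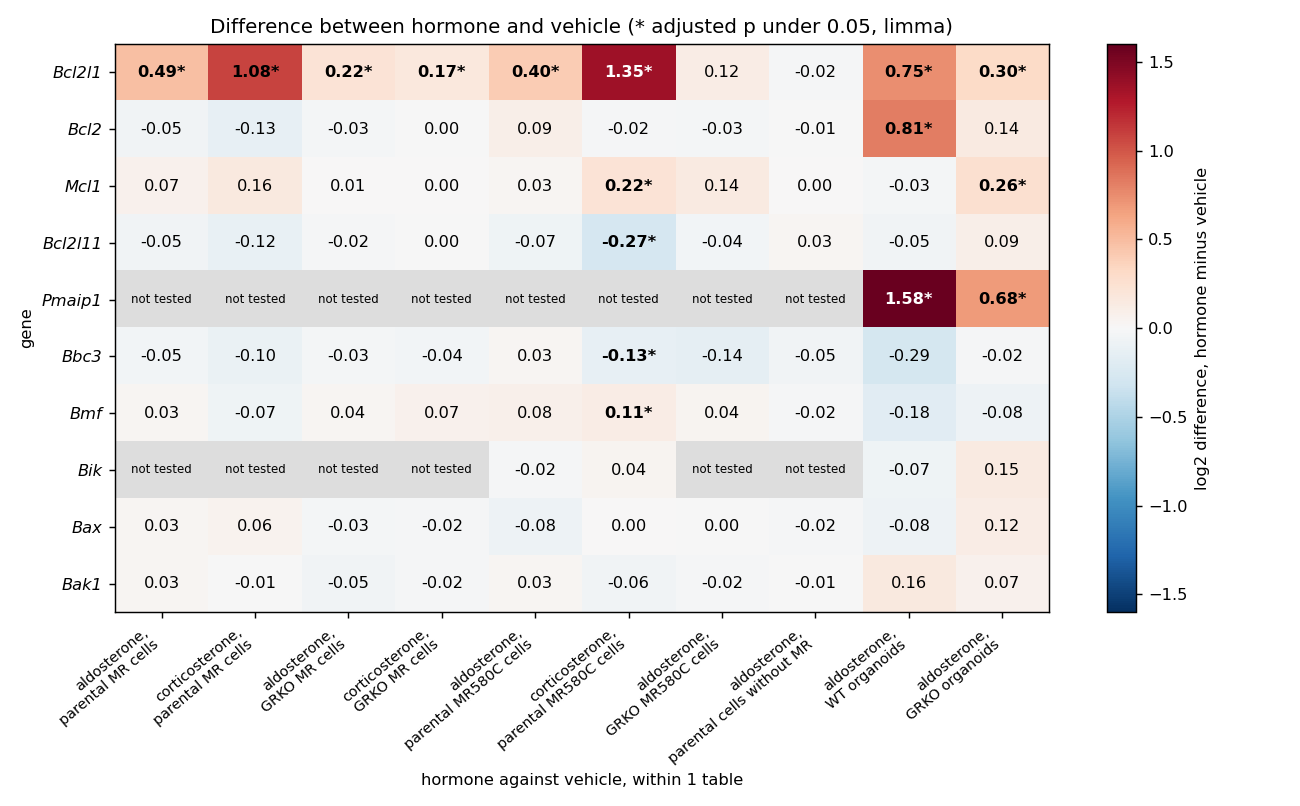
Log2 difference between hormone and vehicle libraries (colour and number) for the 10 genes (lines) in 10 comparisons (columns), each within 1 table, with a star where limma's adjusted p was under 0.05 and grey where a gene could not be tested. Bcl2l1 carries a star in 8 of the 10 columns, Pmaip1 was testable in organoids only, and the strongest change is Pmaip1 in WT organoids at 1.58.

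Bcl2l1 (NM_001355053, chromosome 2, 152780664 to 152830717, minus strand, mm10 build) encodes BCL-XL. In parental MR cells its log2 level was 11.05, 11.06 and 11.02 with vehicle and 11.56 and 11.50 with aldosterone. Both aldosterone libraries lay above all 3 vehicle libraries, and the gene rose by 0.49 ± 0.029 (SE, limma, adjusted p = 8.48e-05). It was the 1 member called of 8 tested, beside 0.697% of 12479 genes in that comparison, and it rose by 0.50 without both libraries numbered 3. With corticosterone the libraries stood at 12.18 and 12.12 against 11.08, 11.09 and 11.04, again without overlap. This rise was 1.08 ± 0.035 (adjusted p = 2.78e-07), again the 1 member of 8, beside 3.11% of 12457 genes, and 1.09 without both libraries numbered 3. These are differences on a compressed scale, and the authors' deposited table gives log2 fold changes of 0.93 for aldosterone and 1.69 for corticosterone. Both hormones were compared with the same vehicle libraries, at different doses and in separate tables, so the values are set side by side only.

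In MR cells labelled GRKO the response of Bcl2l1 was smaller. Aldosterone libraries stood at 11.92, 11.91 and 11.95 against 11.70, 11.68 and 11.72 with vehicle, and corticosterone libraries at 11.93, 11.94 and 11.90 against 11.75, 11.73 and 11.77. All 3 hormone libraries lay above all 3 vehicle libraries in each table. The rise was 0.22 ± 0.021 with aldosterone (limma, adjusted p = 1.52e-05) and 0.17 ± 0.021 with corticosterone (adjusted p = 0.00534). In each case Bcl2l1 was the 1 member called of 8, beside 0.993% of 12486 genes with aldosterone and 0.248% of 12517 with corticosterone. Leaving out vehicle library 1 brought the corticosterone result to an adjusted p of 0.05, with a value still of 0.17, while the adjusted p ran from 3.7e-07 to 0.05 over its alternatives. The authors' deposited table gives 0.40 and 0.30.

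The response itself differed between these lines by the limma interaction. For aldosterone the Bcl2l1 response was larger in parental than in GRKO-labelled MR cells by 0.26 ± 0.033 (adjusted p = 0.00166), the 1 member called of 8, beside 0.258% of 12776 genes. For corticosterone it was larger by 0.91 ± 0.037 (adjusted p = 6.24e-09), and 2 of 8 members were called, beside 2.82% of 12787 genes. The second was Bmf, whose protein tethers to the cytoskeleton and is freed on loss of adhesion. Its corticosterone libraries stood at 8.13 and 8.11 against 8.19, 8.17 and 8.21 in parental cells, and at 7.90, 7.93 and 7.90 against 7.84, 7.85 and 7.84 in cells labelled GRKO. The groups did not overlap in either line, which so few libraries can show by chance, and they were ordered in opposite directions. The listed Bmf transcript was not the same, NM_138313 for the parental and NM_001311140 for the GRKO-labelled line. Whether this bears on the contrast was not tested. The differences of -0.07 ± 0.026 (adjusted p = 0.34) and 0.07 ± 0.014 (adjusted p = 0.112) were not called on their own, and the interaction was -0.14 ± 0.024 (adjusted p = 0.00587). The authors' deposited table gives Bmf log2 fold changes of -0.26 and 0.45, neither called, so these differences too are compressed. Leaving out both libraries numbered 3 of parental MR cells keeps 1 library with each hormone there. The Bcl2l1 differences were then 0.28 and 0.92 and that of Bmf -0.11. Those of Mcl1 and Bcl2l11 for corticosterone were 0.19 and -0.18.

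Cells without added MR gave the background of the aldosterone response. Their Bcl2l1 libraries stood at 11.36, 11.31 and 11.34 with aldosterone and at 11.35, 11.36 and 11.36 with vehicle, so the groups overlapped. The difference was -0.02 ± 0.02 (limma, adjusted p = 0.898), with a 95% confidence interval from -0.07 to 0.03. None of the 8 members tested was called, beside 0.00767% of 13038 genes, and 1 member (Bbc3, -0.05) had an unadjusted p under 0.05. The authors' deposited table calls none of the members and 0.0986% of its genes. The Bcl2l1 response was larger with MR than without by 0.51 ± 0.033 (adjusted p = 6.82e-06), the 1 member of 8 called, beside 0.531% of 13171 genes, and by 0.52 without both libraries numbered 3.

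**Figure D2:**
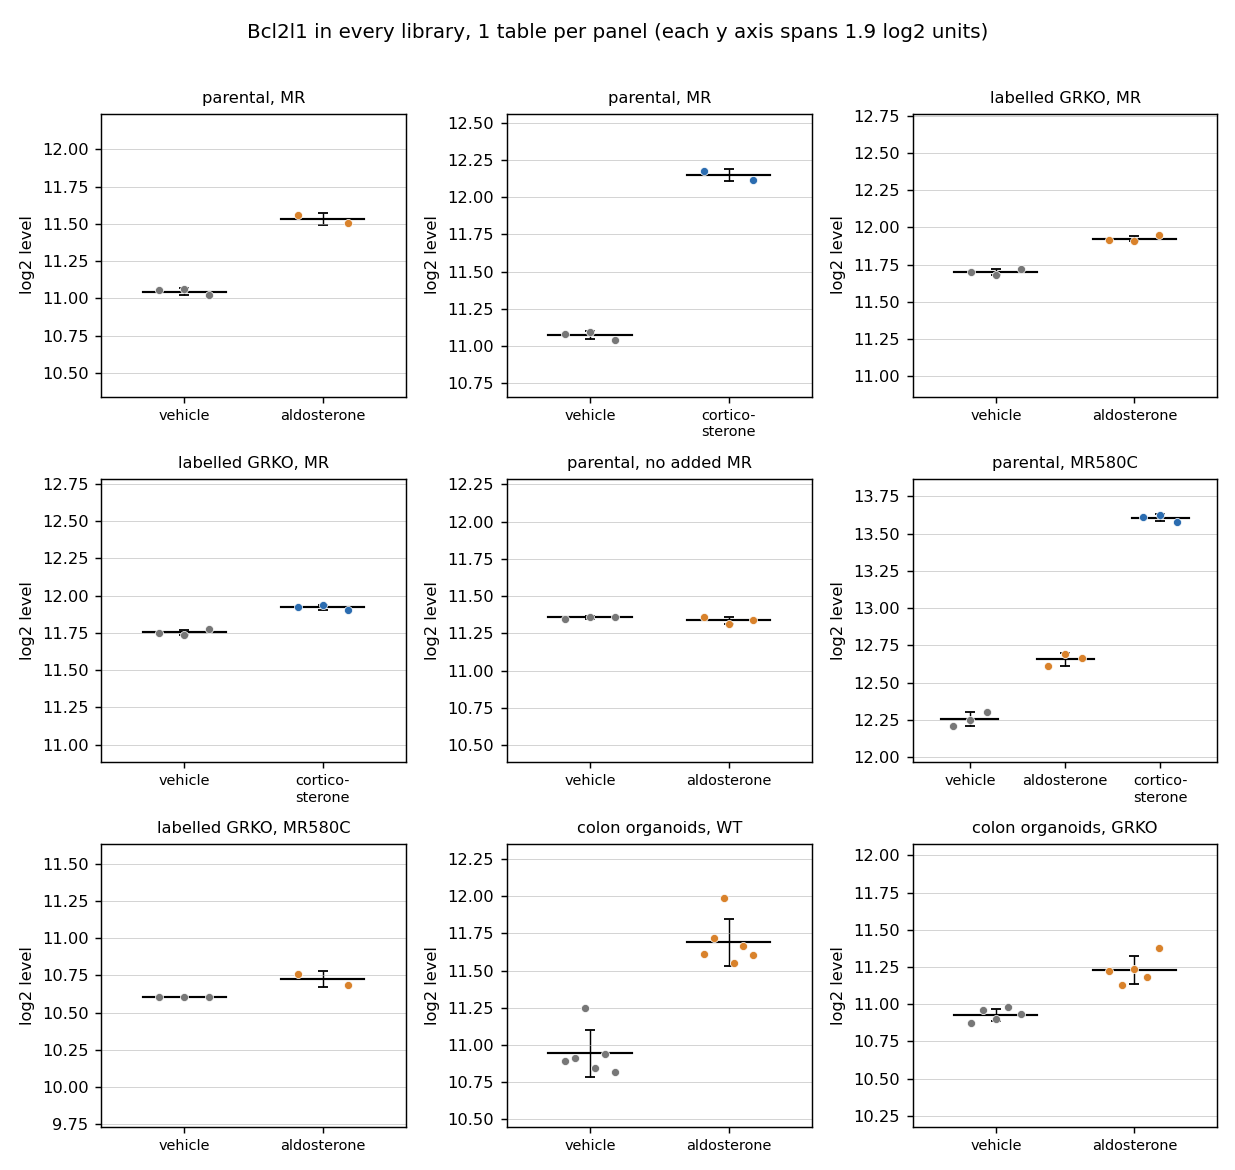
Deposited log2 level of Bcl2l1 (y axis, the same span in every panel) in each library (points), with group means (horizontal lines) and SD (bars), 1 panel per table of cells or organoids. Hormone libraries lie above vehicle libraries in every panel except that of parental cells with no added MR, where they overlap between 11.31 and 11.36, and 2 identical libraries of MR580C cells labelled GRKO are drawn as 1.

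**Figure D3:**
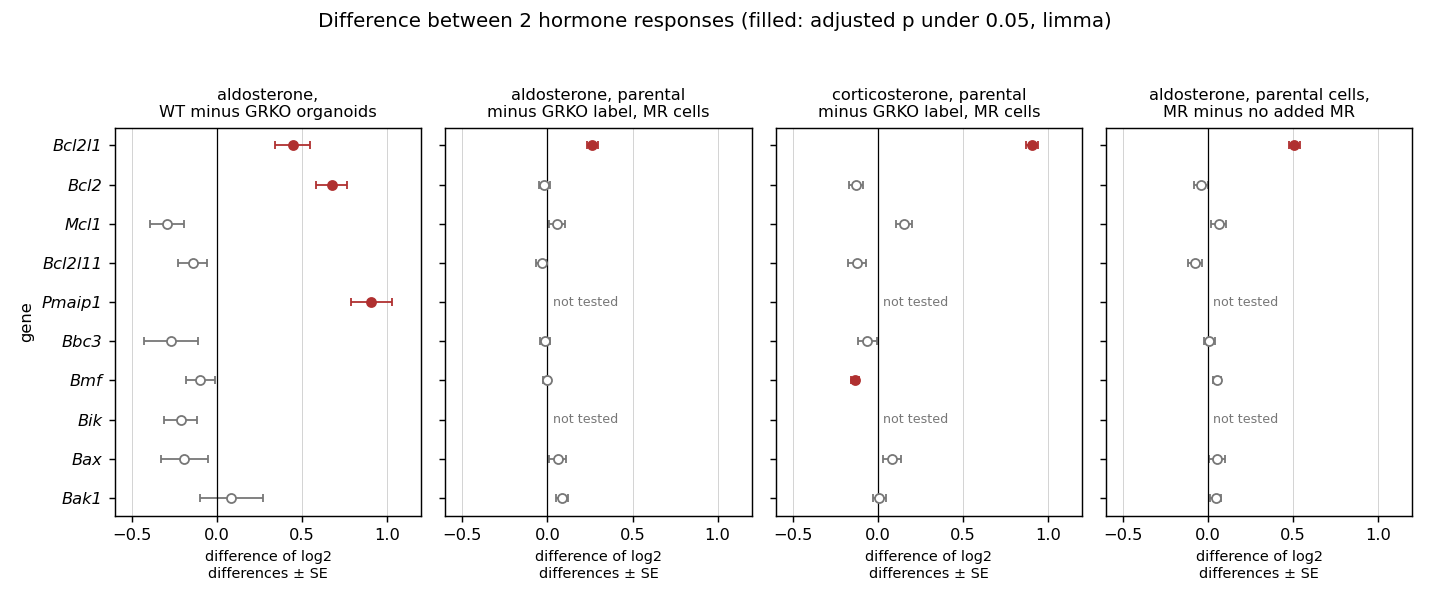
Difference between 2 hormone responses (x axis, difference of log2 differences with its SE) for the 10 genes (y axis) in 4 limma interactions, filled where the adjusted p was under 0.05. Bcl2l1 is filled in all 4 panels, from 0.26 to 0.91, Pmaip1 (0.91) and Bcl2 (0.67) in organoids, and Bmf (-0.14) for corticosterone.

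The start of Bcl2l1 is shown because this gene moved in most comparisons. RefSeq windows (GRCm38.p6, the same assembly as mm10) of 250 bases before to 50 after a start were found for 8 of the 10 genes, 15 windows in all. They were searched on both strands for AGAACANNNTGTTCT, the full steroid receptor element, and for its single arm AGAACA, which lies inside the full element. All 3 Bcl2l1 windows lacked both, and so did the 12 windows of the other members. Among 32851 windows of all genes, 0.00913% held the full element and 19.0% the arm. The window at the start that the tables list, chr2:152830668-152830967, minus strand, reads 5′ to 3′ as follows, with no capitals because no motif was found.
Bcl2l1: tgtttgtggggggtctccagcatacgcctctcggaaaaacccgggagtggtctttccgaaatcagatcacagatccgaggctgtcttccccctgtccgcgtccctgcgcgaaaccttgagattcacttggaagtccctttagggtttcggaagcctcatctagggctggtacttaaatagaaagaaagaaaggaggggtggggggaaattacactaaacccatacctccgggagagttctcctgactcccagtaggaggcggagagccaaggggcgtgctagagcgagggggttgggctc

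Of the other survival genes, Mcl1 (NM_008562, chromosome 3, 95658721 to 95663178), a short-lived protein, and Bcl2 (NM_009741, chromosome 1, 106538176 to 106714290) did not pass the test in MR cells. With corticosterone in parental MR cells Mcl1 stood at 12.18 in both libraries against 12.03, 11.94 and 12.09, without overlap, a difference of 0.16 ± 0.046 (limma, adjusted p = 0.159). Bcl2 stood at 10.77 and 10.84 against 10.96, 10.90 and 10.94, also without overlap, a difference of -0.13 ± 0.037 (adjusted p = 0.138). So few libraries often separate by chance. These calls changed without the libraries numbered 3. Leaving out vehicle library 3 alone added Mcl1. A fit blocked on replicate number called Bcl2l1, Mcl1, Bcl2 and Bcl2l11, in a total of 1257 genes called. Without both libraries numbered 3, with 1 corticosterone library left, Mcl1 differed by 0.19, Bbc3 by -0.19, Bcl2 by -0.16 and Bcl2l11 by -0.18. Without corticosterone library 3 alone Bbc3 also differed by -0.19. With aldosterone the 7 members other than Bcl2l1 differed by -0.05 to 0.07 in parental MR cells and by -0.05 to 0.04 in those labelled GRKO, and leaving out libraries numbered 3 called no further member. The pore-forming genes Bax (NM_007527, chromosome 7, 45461695 to 45466898) and Bak1 (NM_007523, chromosome 17, 27019812 to 27028627) were called in none of the comparisons, cells and organoids included.

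In parental MR580C cells both hormones and the vehicle share 1 table, which is on a variance-stabilized scale. Aldosterone raised Bcl2l1, with libraries at 12.61, 12.69 and 12.66 against 12.21, 12.25 and 12.30, by 0.40 ± 0.034 (limma, adjusted p = 2.88e-07). This was the 1 member called of 9, beside 1.15% of 18787 genes. Corticosterone raised Bcl2l1, Mcl1 and Bmf and lowered Bcl2l11 and Bbc3, 5 of 9 members beside 6.92% of 18787 genes (3.45% raised and 3.47% lowered). Bcl2l1 stood at 13.61, 13.63 and 13.58, above all libraries of the other groups, and rose by 1.35 ± 0.034 (adjusted p = 4.49e-17). Mcl1 stood at 12.92, 12.99 and 12.98 against 12.70, 12.80 and 12.74 with vehicle, without overlap, and rose by 0.22 ± 0.037 (adjusted p = 0.000446).

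The BH3-only genes of these cells went in both directions. Bcl2l11 (NM_207680, chromosome 2, 128126038 to 128162547, plus strand), the gene of BIM, stood at 10.60, 10.64 and 10.50 with corticosterone against 10.87, 10.84 and 10.84 with vehicle, without overlap. It fell by 0.27 on the log2 scale (SE 0.037, limma, adjusted p = 3.7e-05), and the authors' deposited table gives -0.54. Bbc3 (NM_133234, chromosome 7, 16309583 to 16318334, plus strand), the p53 target PUMA, stood at 10.20, 10.20 and 10.22 against 10.33, 10.40 and 10.28, and fell by 0.13 (adjusted p = 0.0349). Its 3 corticosterone libraries lay below all other libraries of the table. Bmf (NM_001311140, chromosome 2, 118528757 to 118547599, minus strand) stood at 9.75, 9.81 and 9.74 against 9.69, 9.60 and 9.67 and rose by 0.11 ± 0.033 (adjusted p = 0.0411). In MR cells labelled GRKO its difference was 0.07, on another scale. The authors' deposited table gives Bmf log2 fold changes of 0.59 and 0.45 for these, so both scales compress them. Both small calls were fragile: Bbc3 lost its call in 5 of the 6 fits without 1 library (adjusted p from 0.015 to 0.15 over all its alternatives), and Bmf in 5 of 6 (0.033 to 0.22) and in the authors' deposited table (0.065), which calls 8.79% of genes. Bik (NM_007546, chromosome 15, 83526862 to 83544635) ran from 9.16, the lowest value of the table, to 9.31 and differed by 0.04 ± 0.03 (adjusted p = 0.482).

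Corticosterone at 100 nM was also set against aldosterone at 10 nM in these cells, so hormone and dose cannot be told apart. Of 9 members 4 were called, beside 3.35% of 18787 genes. Bcl2l1 was higher with corticosterone by 0.95 ± 0.034 and Mcl1 by 0.19 ± 0.037 (limma, adjusted p = 5.48e-14 and 0.0032). Bcl2l11 differed by -0.20 ± 0.037 (adjusted p = 0.0017) and Bbc3 by -0.16 ± 0.037 (adjusted p = 0.0151). Aldosterone libraries of Bcl2l11 (10.76, 10.76 and 10.82) lay between the other groups, at -0.07 ± 0.037 from vehicle (adjusted p = 0.555). Without corticosterone library 2 the calls of Mcl1 (adjusted p = 0.051, from 0.0011 to 0.051 over its alternatives) and Bbc3 (0.099, from 0.0078 to 0.099) were lost, which left 2 members. Bbc3 also lost its call without corticosterone library 1 (0.07) and without aldosterone library 2 (0.094).

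**Figure D4:**
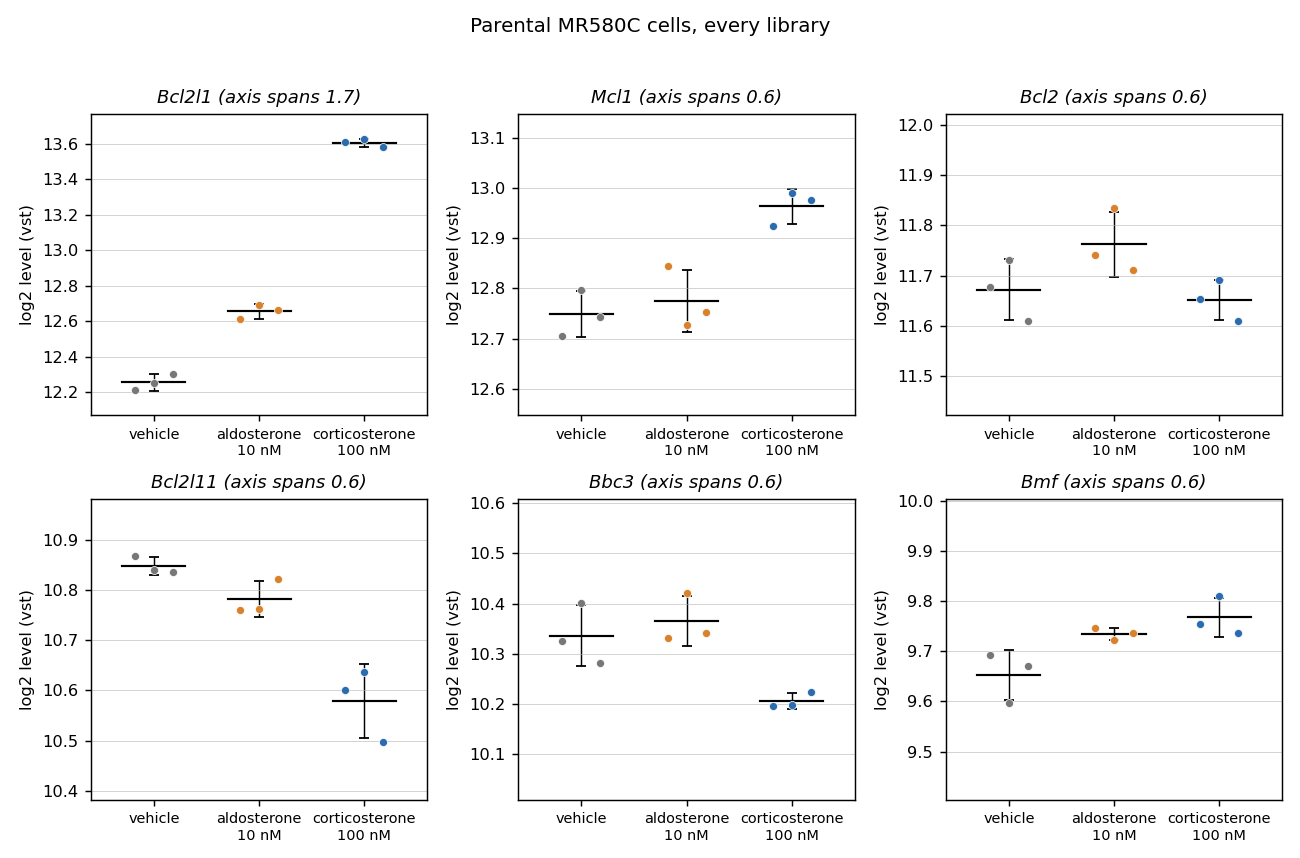
Log2 level (vst, y axis) of 6 members in each library of parental MR580C cells (points) with vehicle, aldosterone or corticosterone, with group means (lines) and SD (bars). The y axis of Bcl2l1 spans more than the others. Corticosterone libraries lie above vehicle for Bcl2l1, Mcl1 and Bmf and below it for Bcl2l11 and Bbc3, and Bcl2 overlaps.

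The windows of the lowered genes Bcl2l11 and Bbc3 are shown for the FOXO element GTAAACA, since FOXO factors are known activators of both genes. The search covered both strands. Of the 15 windows of members 2 held it, 1 of Bcl2l11 at the start the tables list and 1 of Bbc3 at another RefSeq start, beside 3.65% of 32851 windows of all genes. A match describes letters in a window and is not a binding site shown by these data. The matches stand in capitals, at position -227 from the start in Bcl2l11 (chr2:128125788-128126087, plus strand) and, on the other strand as TGTTTAC, at -167 in Bbc3 (chr7:16310011-16310310, plus strand), both GRCm38.p6 and 5′ to 3′.
Bcl2l11: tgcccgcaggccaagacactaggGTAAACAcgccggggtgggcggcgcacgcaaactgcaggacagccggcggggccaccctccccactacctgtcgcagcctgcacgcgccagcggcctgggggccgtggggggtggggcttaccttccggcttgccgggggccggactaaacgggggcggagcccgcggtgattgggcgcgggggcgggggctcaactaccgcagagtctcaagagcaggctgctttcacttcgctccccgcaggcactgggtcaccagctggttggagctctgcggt
Bbc3: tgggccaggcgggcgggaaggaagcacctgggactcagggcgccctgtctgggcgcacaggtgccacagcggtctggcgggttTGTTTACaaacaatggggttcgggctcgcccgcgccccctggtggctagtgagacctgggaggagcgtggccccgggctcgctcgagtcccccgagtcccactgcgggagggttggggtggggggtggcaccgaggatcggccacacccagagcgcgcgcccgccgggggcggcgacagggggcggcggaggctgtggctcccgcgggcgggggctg

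The GRKO-labelled MR580C line had aldosterone libraries 2 and 3 that were identical within 1e-06 for all 17639 genes that vary, and these were counted as 1. No member of 8 was then called, beside 0.298% of 12418 genes, while 4 had an unadjusted p under 0.05 (limma). Bbc3 stood at 7.98 and 7.91 against 8.10, 8.07 and 8.09 (difference -0.14 ± 0.029, adjusted p = 0.0845). Mcl1 stood at 11.90 and 11.91 against 11.75, 11.75 and 11.79 (0.14 ± 0.032, adjusted p = 0.102), and Bcl2l1 at 10.76 and 10.69 against 10.61 in all 3 (0.12 ± 0.032, adjusted p = 0.136). None of these groups overlapped, but so few libraries often separate by chance. With the identical libraries kept as separate, Bbc3, Mcl1 and Bcl2l1 were called, but the genes called in all then rose from 37 to 683. The authors' deposited table calls Bbc3 (-0.55, adjusted p = 0.0021) and Mcl1 (0.23, 0.0038) but not Bcl2l1 (0.19, 0.073), beside 3.14% of 17639 genes there. For corticosterone the short table lists 404 genes, 402 of them past the threshold in the authors' deposited values, so that listing already selects. It holds Bbc3 at 8.01 in all 3 corticosterone libraries against 8.09, 8.07 and 8.08, and Mcl1 at 11.75, 11.79 and 11.78 against 11.68, 11.68 and 11.72. The authors' deposited table gives -0.38 for Bbc3 and 0.12 for Mcl1.

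In WT colon organoids aldosterone raised both a death gene and 2 survival genes. Pmaip1, Bcl2 and Bcl2l1 were called, 3 of 10 members and all raised, beside 6.59% of 20196 genes (4.23% raised). Pmaip1 (NM_021451, chromosome 18, 66458604 to 66465558) encodes NOXA, which binds MCL1. Its 6 vehicle libraries ran from 9.76 to 10.14 with a median of 9.96 and its 6 aldosterone libraries from 11.31 to 11.75 with a median of 11.59. The groups were more than 1 unit apart, and the rise was 1.58 ± 0.076 (limma, adjusted p = 7.29e-11). Bcl2 ran from 8.28 to 8.46 (median 8.42) with vehicle and from 9.05 to 9.34 (median 9.21) with aldosterone, without overlap, a rise of 0.81 ± 0.063 (adjusted p = 4.33e-08). Bcl2l1 ran from 10.82 to 11.25 (median 10.90) and from 11.55 to 11.99 (median 11.64), also without overlap, a rise of 0.75 ± 0.08 (adjusted p = 2.86e-06). The authors' deposited table gives 1.71, 1.08 and 0.78.

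The other BH3-only genes of WT organoids were not called. Bmf ran from 8.40 to 8.64 with vehicle and from 8.24 to 8.44 with aldosterone, a difference of -0.18 ± 0.063 (limma, adjusted p = 0.105), and is called in the authors' deposited table (-0.27, adjusted p = 0.043), where 8.15% of genes are. Bbc3 ran from 7.81 to 8.18 and from 7.33 to 7.92 (-0.29 ± 0.097, adjusted p = 0.105). Both pairs of ranges overlapped. Mcl1 differed by -0.03 ± 0.072, Bcl2l11 by -0.05 ± 0.063, Bik by -0.07 ± 0.08, Bax by -0.08 ± 0.102 and Bak1 by 0.16 ± 0.102. Without aldosterone libraries 4 and 6, those with high Col1a1 (an alternative chosen after seeing the data), the same 3 members were called, with Pmaip1 at 1.59, Bcl2 at 0.76 and Bcl2l1 at 0.80.

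In GRKO organoids aldosterone raised Pmaip1, Bcl2l1 and Mcl1, 3 of 10 members, beside 1.31% of 20050 genes (1.12% raised). Pmaip1 stood at 10.31, 10.06, 9.91, 10.23 and 10.13 with vehicle and at 10.97, 10.85, 10.93, 10.62 and 10.67 with aldosterone, without overlap, and rose by 0.68 ± 0.08 (limma, adjusted p = 0.000146). Bcl2l1 stood at 10.87, 10.96, 10.90, 10.98 and 10.93 against 11.22, 11.13, 11.24, 11.18 and 11.38, without overlap, and rose by 0.30 ± 0.05 (adjusted p = 0.00364). Mcl1 stood at 12.77, 12.57, 12.48, 12.60 and 12.55 against 12.92, 12.85, 12.91, 12.73 and 12.88, where the highest vehicle library, number 1, lay above the lowest aldosterone library. Its rise of 0.26 ± 0.057 (adjusted p = 0.0328) was lost in 8 of the 10 fits without 1 library (adjusted p from 0.061 to 0.11 in those 8, and from 0.0004 to 0.67 over all its alternatives). Bcl2 stood at 8.54, 8.48, 8.31, 8.33 and 8.24 against 8.45, 8.69, 8.42, 8.50 and 8.54, with overlap, a difference of 0.14 ± 0.068 (adjusted p = 0.515).

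The aldosterone responses of Pmaip1, Bcl2 and Bcl2l1 were larger in WT than in GRKO organoids, 3 of 10 members beside 2.35% of 20871 genes (1.71% in that direction). The differences were 0.91 ± 0.12 for Pmaip1 (limma interaction, adjusted p = 2.14e-05), 0.67 ± 0.092 for Bcl2 (adjusted p = 3.74e-05) and 0.44 ± 0.102 for Bcl2l1 (adjusted p = 0.0143). Mcl1, called in GRKO but not in WT organoids, differed between them by -0.29 ± 0.097 (adjusted p = 0.142), so a difference in its response was not shown. Leaving out WT vehicle library 1 brought that contrast to -0.34 with an adjusted p of 0.033. The other 6 members differed by -0.27 to 0.08 and were not called.

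**Figure D5:**
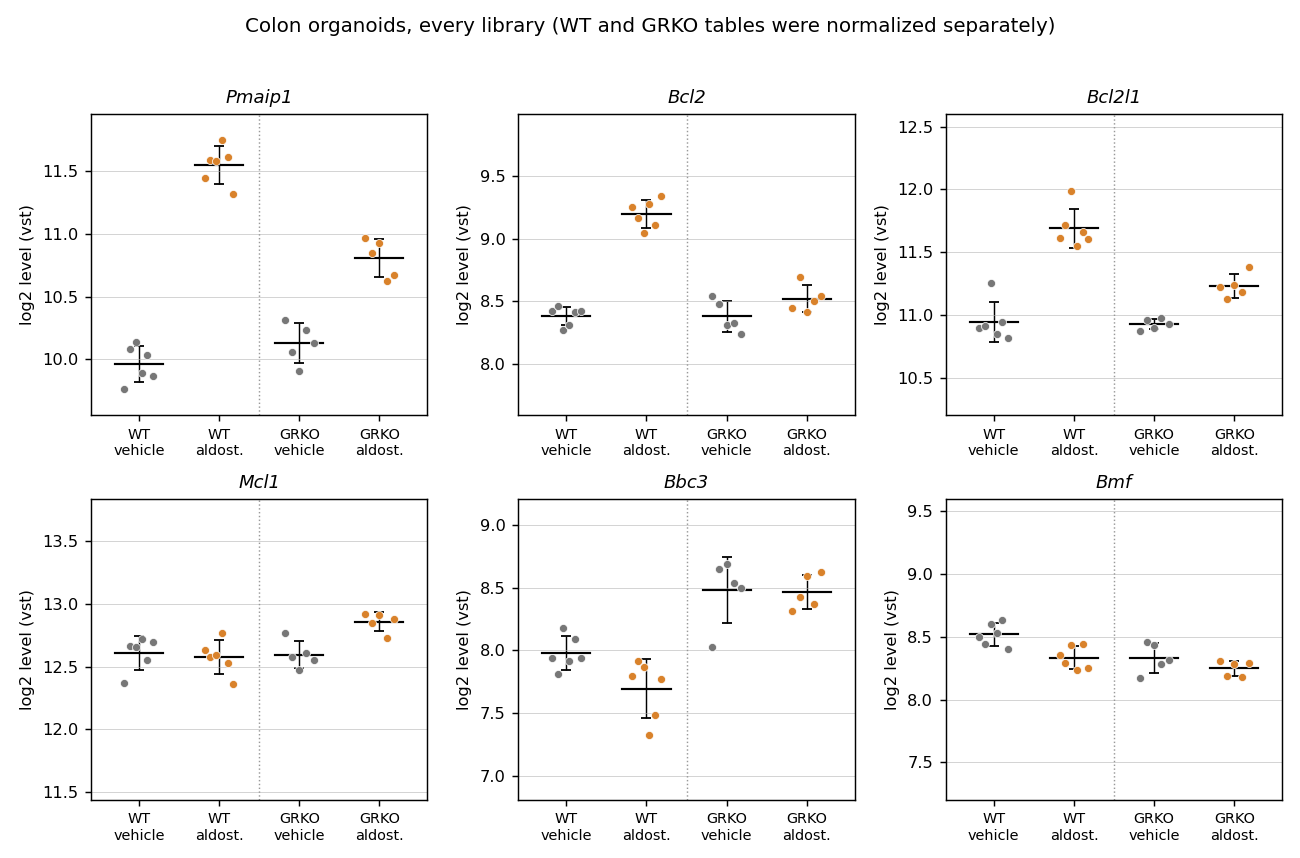
Log2 level (vst, y axis, the same span in every panel) of 6 members in each organoid library (points), with group means (lines) and SD (bars). Left of the dotted line are WT and right of it GRKO organoids, whose tables were normalized separately. Aldosterone libraries of Pmaip1 and Bcl2l1 lie above vehicle in both genotypes, those of Bcl2 in WT organoids, and the remaining genes overlap.

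Other genes of the pathway were counted in lists beside the members. In MR cells none of the 8 tested of 15 further BCL2 family genes and none of the 17 tested of 18 caspase cascade genes was called with either hormone in either line. Over all genes aldosterone and corticosterone called 0.697% and 3.11% in the parental and 0.993% and 0.248% in the GRKO-labelled line. At such shares the absence of calls in lists this short says little. Corticosterone in parental MR cells raised Cflar, the decoy of caspase activation at death receptors, by 0.30 ± 0.037 (limma, adjusted p = 0.00182) and the cell cycle inhibitor Cdkn1a by 0.29 ± 0.034 (adjusted p = 0.00132), and lowered Ddit3, the stress factor CHOP (-0.24 ± 0.038, adjusted p = 0.00809). In parental MR580C cells corticosterone raised Cflar by 0.37 ± 0.036 and Foxo3, the factor whose element was searched above, by 0.41 ± 0.033 (adjusted p = 2.12e-07 and 1.68e-08). Of the 14 listed regulators of BCL2 family transcription 2 were raised, Foxo3 and Foxo1 (0.12), and 3 were lowered, Ddit3 (-0.16), E2f1 (-0.14) and Stat5a (-0.13), with a list median of -0.059. Of 18 caspase cascade genes Htra2 (0.17) and Apaf1 (0.15) were raised and Birc6 (-0.20) was lowered, and of 12 further BCL2 family genes tested Bnip3 (0.12) was raised. These counts, and 5 of 12 p53 targets raised and 2 lowered, stand beside 3.45% raised and 3.47% lowered of 18787 genes. Trp53, the gene of p53 itself, is on that list and was among those called. The p53 targets had a list median of 0.043 against 0.0 over all genes.

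In WT organoids, where 6.59% of 20196 genes were called and 4.23% raised, 4 of 12 p53 targets were raised, Sesn1 by 1.47 ± 0.077, Trp53inp1 by 1.42 ± 0.08, Cdkn1a by 0.94 ± 0.084 and Gdf15 by 0.86 ± 0.145, with a list median of 0.09 against -0.0047 over all genes. Trp53 is a member of that list and was not called. Among the caspase cascade genes the apoptosome scaffold Apaf1 was lowered (-0.20 ± 0.0574, limma, adjusted p = 0.05 when rounded). Of the 7 death receptor genes tested, the receptors Fas (-0.34 ± 0.069) and Tnfrsf10b (-0.27 ± 0.053) were lowered, and of 15 further BCL2 family genes Bcl2l14 (-0.34 ± 0.053) was. Of the 14 regulators of BCL2 family transcription 3 were raised and 1 was lowered, with Stat5a among those called. The responses of 2 regulators, Stat5a included, were larger in WT than in GRKO organoids, beside 2.35% of 20871 genes called in either direction. In GRKO organoids, where 1.31% of 20050 genes were called, Trp53inp1 (0.95 ± 0.058) was the 1 gene called among the p53 targets. None was called among the caspase cascade, death receptor, further BCL2 family and regulator genes. The responses of Sesn1, Cdkn1a and Trp53inp1 were larger in WT than in GRKO organoids, by 1.34 ± 0.117, 0.63 ± 0.125 and 0.47 ± 0.108 (adjusted p = 4.93e-08, 0.00356 and 0.013). The 5 reference hormone genes Sgk1, Fkbp5, Per1, Tsc22d3 and Klf9 were raised in both genotypes, with medians of 2.13 in WT and 1.37 in GRKO organoids.

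The genes whose pattern over 58 libraries was most like that of Bcl2l1 were ranked by Pearson's r of the difference to the vehicle mean of each table, over 11736 genes. They were Ralb (0.951), a small GTPase, Tead4 (0.95), Tob2 (0.946), Tsc22d3 (0.94), which is GILZ, and Mknk2 (0.932). Libraries of a table share their vehicle mean, and r weighs the strongest responses most. Tead4, a partner of YAP, rose by 0.48 ± 0.0226 with aldosterone and by 1.07 ± 0.0347 with corticosterone in parental MR cells, by 0.95 ± 0.0643 in WT organoids, and differed by 0.17 ± 0.06 in GRKO organoids (limma, adjusted p = 0.276). Of the members Mcl1 (0.342) and Bcl2 (0.334) were the most alike to Bcl2l1 by this measure and Bcl2l11 (-0.58) the least, and Pmaip1 and Bik were not testable in every table.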

How the data were processed

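Total RNA libraries (stranded kit, per the labels' protocols) were mapped to mm10, and the submitters' processing notes name STAR 2.7.0f and HOMER 4.10.4. Values were deposited on a log2 scale, a variance-stabilized one (vst) in 3 tables per the file headers and, judged from their values, a regularized log2 (rlog) in the other 7, which shrinks the differences of low genes. The authors' deposited tables also hold log2 fold changes with a p-value and adjusted p-value, whose test is not named. The counting's strand setting and annotation release were not stated in the labels, and whole reads could not be recovered, so no count test was run. Each table was fitted alone with limma 3.58.1 (R 4.3.3; 1 mean per group, variance trend), after dropping genes without variation or not reaching 3.32 (10 on the linear scale) in as many libraries as the smaller group holds. P-values were adjusted by Benjamini-Hochberg over all genes tested, with a threshold of 0.05. Interactions compared differences within tables, since tables were normalized separately. The identical libraries were averaged. The members, gene lists and named genes were chosen with earlier results of these data known. The 10 members are all named, other list genes as examples among those called (1 is not reported here), and the 5 genes of highest r with Bcl2l1. The 14 ChIP samples and 1 RNA sample without a column were not analysed here. Replicate numbers were not used to pair libraries, since no comparison had 3 or more pairs that all correlated above 0.1. In parental MR cells only libraries numbered 1 and 3 form such pairs, so this rule could not be met there. Those pairs correlated at 0.675 to 0.75, and pairing in that line was not decided.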

Additional observations from a re-analysis of the deposited data

Results flagged for a closer look

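Single libraries stood far from their group for 4 of the 40 groups of 4 to 10 libraries checked (gene by organoid group), where chance gives about 1 in 20. In GRKO organoids with vehicle, Bak1 was 10.84 in library 1 against 11.55 to 11.78 in the others, and Bax was 10.71 in the same library against 10.46 to 10.48. In WT organoids with vehicle, Bax was 10.77 in library 3 against 10.16 to 10.29, and Bcl2l1 was 11.25 in the same library against 10.82 to 10.94.

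Responses that differed between groups by a limma test of the difference itself were the following. The aldosterone response was larger in WT than in GRKO organoids by 0.91 for Pmaip1, 0.67 for Bcl2 and 0.44 for Bcl2l1. In MR cells the Bcl2l1 response was larger in parental than in GRKO-labelled cells by 0.26 with aldosterone and 0.91 with corticosterone, and that of Bmf to corticosterone differed by -0.14. The Bcl2l1 response to aldosterone was larger with added MR than without by 0.51. In parental MR580C cells the corticosterone level differed from the aldosterone level by 0.95 for Bcl2l1, 0.19 for Mcl1, -0.20 for Bcl2l11 and -0.16 for Bbc3, at doses that differed.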

How the results depend on the processing

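Alternatives were no filter, no variance trend, median-centred libraries, a replicate block, libraries left out and the authors' deposited tables. Of 209 alternative counts of called members, 193 stayed within 1.5 times. Of the single values of members 1773 kept their side of the threshold, 27 lost a call and 27 gained one. Direction was compared only where a value was called in either fit, and 0 of those reversed. Values called in neither fit could change sign, as Bax did with aldosterone in parental MR cells (-0.01 to 0.07). Members called with corticosterone in parental MR cells numbered 4 with the replicate block (Bcl2l1, Bcl2 -0.15, Bcl2l11 -0.15 and Mcl1 0.12) and 1 to 2 without single libraries. Leaving out both libraries numbered 3 kept 1 corticosterone library. No count is given for that fit, nor for the corticosterone response difference between the MR lines without them. Without single libraries the count ran from 0 to 1 with corticosterone in GRKO-labelled MR cells, from 3 to 4 with corticosterone in parental MR580C cells, from 2 to 4 for corticosterone minus aldosterone there, and from 0 to 2 with aldosterone in GRKO-labelled MR580C cells. In the last, keeping the identical libraries separate gave 3, where 683 genes were called, and 2 were called in the authors' deposited table. With aldosterone in GRKO organoids the replicate block gave 0 (Pmaip1 0.71, adjusted p = 0.3; Bcl2l1 0.26, 0.44; Mcl1 0.25, 0.67). The block also added a call of Bmf in WT organoids, and of Bcl2 for corticosterone minus aldosterone in MR580C cells and for the corticosterone response difference. The cause was not tested. The labels do not say whether same-numbered libraries belong together. In parental MR cells they correlated at 0.699 and 0.75 with aldosterone and at 0.722 and 0.675 with corticosterone, over 2 pairs each that are not independent.

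Counts of all genes called moved more. They ran from 37 (without vehicle library 1) to 365 (replicate block) around 87 with aldosterone in parental MR cells, and from 241 to 1257 (replicate block) around 388 with corticosterone. In GRKO-labelled MR cells they ran from 20 (no trend) to 436 around 124 with aldosterone and from 10 (no trend) to 177 around 31 with corticosterone. In parental MR580C cells they ran from 80 to 287 around 216 and from 761 to 1756 around 1300, and from 380 to 763 around 630 between hormones. In GRKO-labelled MR580C cells they ran from 5 to 2377 (without aldosterone library 1) around 37, and without added MR from 0 to 49 around 1. In GRKO organoids they ran from 19 (replicate block) to 970 (without vehicle library 1) around 263. Response differences ran from 19 to 249 (replicate block) around 33 and from 274 to 745 (replicate block) around 360 in MR cells, and from 36 to 90 around 70 with against without MR. Log2 values carry no read counts, so no counting error could be given.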
